A study of Homo sapiens with 15 samples.

Results

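The AP-1 transcription factors, their relative ATF3 and a set of immediate early genes were followed across the RNA-seq libraries of 3 human acute myeloid leukemia (AML) cell lines with and without knockdown of the ubiquitin ligase RNF5. The members were chosen by gene symbol, with 1 row kept per gene ID, and were FOS, FOSL2, JUN, JUNB, JUND, ATF3, EGR1, IER2, DUSP1 and DUSP6, 10 of the 57820 gene IDs in the files. All 10 had values above 0 in MOLM-13 and U937, and 9 had values above 0 in HL-60, where DUSP1 was listed at 0 in every library. Such a 0 marks a gene that the authors filtered out in that line, and is not a measured absence. MOLM-13 and U937 are lines of monocytic character, and HL-60 is a promyelocytic line. Each line carried either pLKO, the empty lentiviral vector, or shRNF5, a short hairpin RNA against RNF5, and which of the study's hairpins was sequenced is not given in the sources used here. Of the 15 libraries, 5 were from MOLM-13 (3 with pLKO, 2 with shRNF5), 4 from U937 (2 and 2) and 6 from HL-60 (3 and 3). No drug or stimulus is named for any library, so the levels are those of the cultures as grown. The sample labels put RNA preparation at 7 days after knockdown and the series description at 5 days. Nothing in the labels says that the libraries of a group came from separate cultures, so the p-values measure the spread between these libraries, which may be technical.

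AP-1 is a dimer of basic leucine zipper proteins. A JUN protein pairs with a FOS protein, with another JUN protein or with an ATF protein, and the dimer binds the AP-1 site or the related cyclic AMP response element (CRE). Many of the genes studied here are immediate early genes, which are transcribed within minutes of growth factor, cytokine or stress signals through the MAP kinases, without new protein synthesis, and whose short-lived mRNAs decay soon after. Serum response factor, together with the ternary complex factors that ERK phosphorylates, acts on several of them through the CArG box. DUSP1 and DUSP6 encode phosphatases that switch the MAP kinases off again, and in myeloid cells AP-1 and EGR1 are known for their part in the monocyte and macrophage programme.

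The promoters of the members differ in the elements through which such signals are read, and the windows below show examples of these elements. They are the strand of the gene, 5′ to 3′, from RefSeq (promoters of GRCh38.p14, 250 bases before to 50 bases after the start), found by exact match at the GRCh37 positions given, and capitals mark the element named.
EGR1 first CArG box, chr5:137801053-137801082, forward strand: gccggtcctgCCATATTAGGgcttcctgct
EGR1 second CArG box, chr5:137801075-137801104, forward strand: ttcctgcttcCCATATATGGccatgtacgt
JUND CRE, chr19:18392614-18392643, reverse strand: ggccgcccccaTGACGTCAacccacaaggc
DUSP1 CRE, chr5:172198305-172198334, reverse strand: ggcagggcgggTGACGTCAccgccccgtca
FOS CRE core, chr14:75745455-75745484, forward strand: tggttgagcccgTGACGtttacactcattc
FOSL2 AP-1 site, chr2:28615718-28615747, forward strand: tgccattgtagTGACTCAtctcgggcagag

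All 10 members had a promoter in the table. Within this window, EGR1 was the only member with a CArG box, which 1.29% of the 35116 promoters held, and it held 2 of them. Sequence outside the window was not searched, so other members may hold a CArG box further from the start. The full CRE, TGACGTCA, stood in the promoters of JUND and DUSP1 and in 1.85% of all promoters. Its core TGACG, searched on both strands and counted also inside the full CRE, was in 8 of the 10 members and in 24.55% of all promoters. The AP-1 site TGACTCA was in FOSL2 alone among the members and in 4.95% of all promoters. The EGR site GCGTGGGCG was in none of the 10 and in 0.79% of all, and the SP1 box GGGCGG was in 7 of the 10 and in 44.95% of all. Such a match describes the letters of this window and is no evidence of binding, and the study's files hold no binding data on these promoters.

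Immediate early genes are known for compact structure, and this held for most of the members but not all. Their median reference transcript was 2107 bases long with 2.5 exons, against 3361 bases and 9 exons over 12229 tested genes with a reference 3′ untranslated region, and all 10 had fewer exons than that median. In transcript length 8 of the 10 were below the median, FOSL2 (6713 bases) and DUSP6 (3627 bases) were above it, and ATF3 and FOSL2 spanned 55444 and 24870 bases of the genome. JUN, JUNB and JUND had 1 exon each. The median GC content of the members was 55.25%, against 48.4%. The destabilising AU-rich pentamer ATTTA was found 5 times in the 3′ untranslated region of FOS and 4 times in that of DUSP1, 6.2 and 6.01 times per kb, against a median of 1.71 per kb over all. In IER2 it was absent from that region, and 6 of the 10 members were above the median of all genes. Some members overlap the genomic span of other annotated genes, FOSL2 that of its antisense gene FOSL2-AS1, JUNB that of HOOK2 and ATF3 that of RN7SL512P. IER2, DUSP1 and DUSP6 overlap genes without a symbol. Strand and exons were not compared, and whether any reads were lost or divided there was not tested.

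RNF5, the targeted gene, was lower in every shRNF5 library than in every pLKO library of its line. Its normalized read count in MOLM-13 lay between 1017 and 1223 under pLKO and at 76 and 81 under shRNF5. In U937 it was 648 and 843 with pLKO and 46 and 74 with shRNF5. In HL-60 it was between 506 and 689 with pLKO and between 37 and 133 with shRNF5. The deposited unit is a read count that the authors scaled per library within each line and rounded, so levels of a gene are set side by side across lines without a test. Depth, which the steps between rounded values allow to be estimated, was 63800000 and 24400000 reads for MOLM-13 with shRNF5 and 9700000 to 21400000 for all other libraries, so that in MOLM-13 depth and construct cannot be told apart. The labelled lineage was checked against markers, with 13 of 14 myeloid markers above 0 in every MOLM-13 and U937 library and 12 of 14 in every HL-60 library. Of the 17 markers of other cell types in the files, 16 were at 0 in all MOLM-13 libraries, 14 in all U937 libraries and 15 in all HL-60 libraries. A gene that failed the authors' filter in a line is listed at 0 there, so these zeros cannot show that a transcript was absent.

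**Figure D1:**
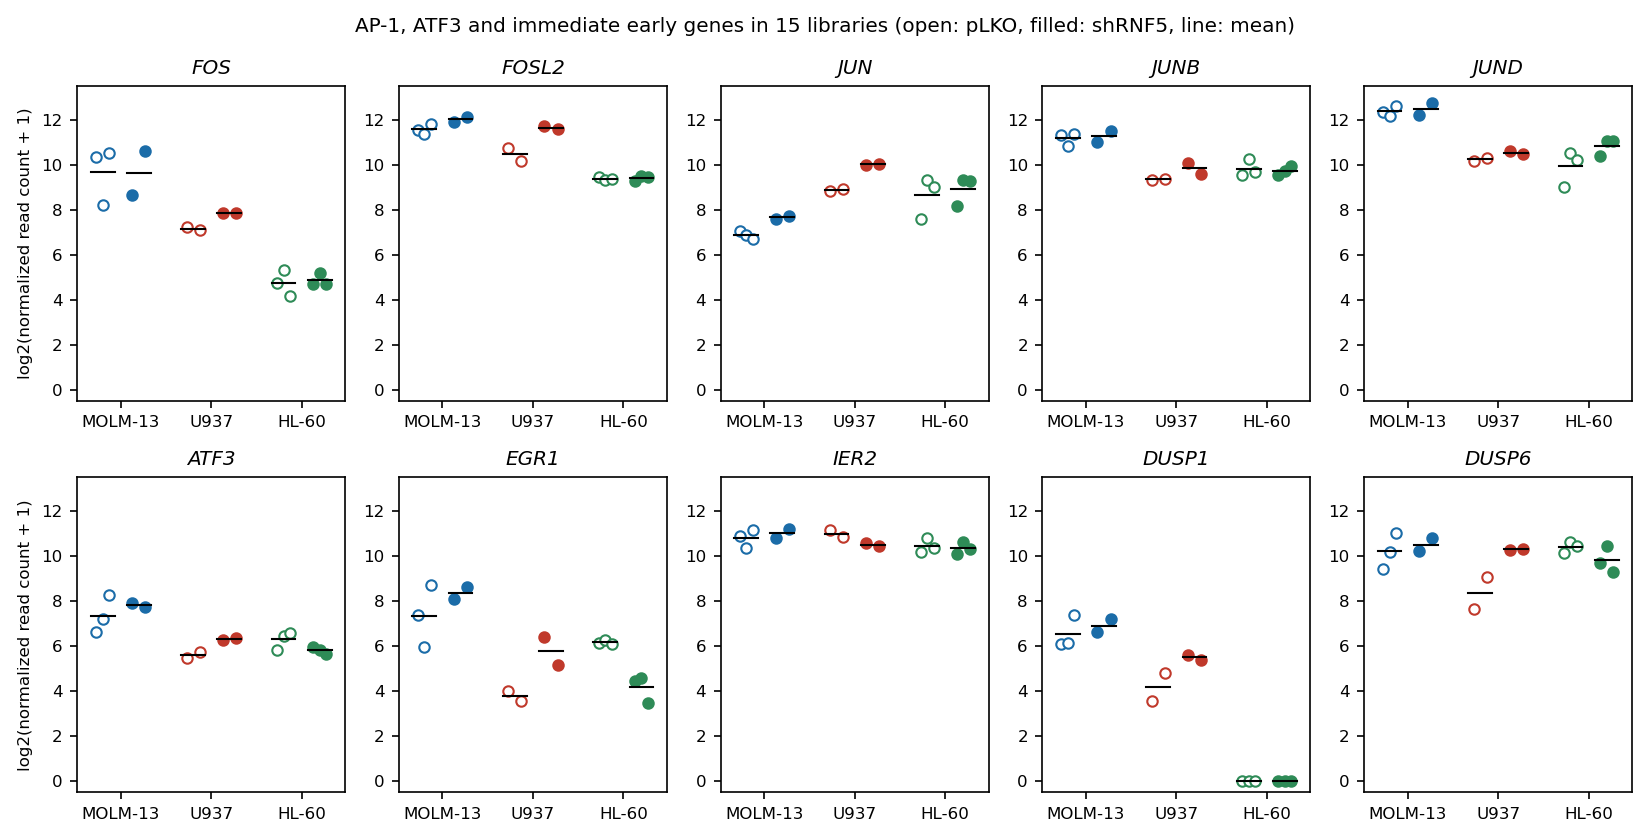
The plot gives log2(normalized read count + 1) of each of the 10 genes in each of the 15 libraries, with pLKO libraries as open and shRNF5 libraries as filled points and the mean of the plotted values of a group as a line. The U937 groups do not overlap for any gene, and FOS lies highest in MOLM-13 and lowest in HL-60. DUSP1 lies at 0 in HL-60, where it was filtered out.

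FOS and FOSL2 are the FOS family subunits that were members here, and FOS is the classic immediate early gene. In MOLM-13 the normalized read count of FOS was 1282, 298 and 1486 with pLKO and 405 and 1583 with shRNF5. It was 151 and 134 in U937 with pLKO and 232 and 231 with shRNF5, and 26, 39 and 17 in HL-60 with pLKO and 25, 35 and 25 with shRNF5. In MOLM-13 a low and a high library stood in both groups, and the HL-60 groups overlapped, whereas both U937 shRNF5 libraries were above both pLKO libraries. The log2 fold change of FOS, shRNF5 against pLKO, was 0.70 in U937 (SE 0.34, adjusted p = 0.214), -0.05 in MOLM-13 (SE 0.74) and 0.11 in HL-60 (SE 0.35), none of them past the threshold. All fold changes here are on the scale of log2(value + 1), which understates the change of low genes, and calls required a limma p under 0.1 after Benjamini-Hochberg adjustment together with a log2 fold change beyond 0.4 in either direction.

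FOSL2 encodes FRA-2, a FOS family protein that stays longer than FOS after stimulation. Its normalized read count was 2986, 2617 and 3594 in MOLM-13 pLKO and 3826 and 4450 in MOLM-13 shRNF5. In U937 it was 1719 and 1157 with pLKO and 3364 and 3069 with shRNF5. In HL-60 it lay between 613 and 718 in all 6 libraries. FOSL2 rose in U937 by 1.19 on the log2 scale (SE 0.26, adjusted p = 0.0321), 2.24-fold between the group means. In MOLM-13 both shRNF5 libraries were above the 3 pLKO libraries, but the log2 fold change of 0.44 (SE 0.17) had an adjusted p of 0.25 and was not called. The HL-60 value was 0.02 (SE 0.13), with a 95% interval from -0.26 to 0.30.

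The JUN family forms the other side of the dimer. JUN itself, the founding member, had a normalized read count of 133, 115 and 102 in MOLM-13 pLKO and 190 and 212 in MOLM-13 shRNF5. In U937 it was 448 and 484 with pLKO and 1019 and 1046 with shRNF5, so that the U937 groups stood far apart with little spread inside them. In HL-60 it was 190, 643 and 516 with pLKO and 284, 634 and 621 with shRNF5, with replicate 1 the lowest in both groups. JUN rose in U937 by 1.15 on the log2 scale (SE 0.26, adjusted p = 0.0328), 2.22-fold between the means. The MOLM-13 value of 0.79 (SE 0.24, adjusted p = 0.173) and the HL-60 value of 0.27 (SE 0.42, adjusted p = 0.674) were not called, although the MOLM-13 groups did not overlap. Without pLKO replicate 1 the MOLM-13 value was 0.88, with an adjusted p of 0.0832, and would be called.

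JUNB, which often restrains proliferation, had normalized read counts between 1812 and 2659 in MOLM-13 pLKO and of 2064 and 2898 with shRNF5. It was 640 and 665 in U937 pLKO, 1083 and 776 in U937 shRNF5, 738 to 1231 in HL-60 pLKO and 736 to 989 in HL-60 shRNF5. None of its 3 fold changes was called, the largest being 0.49 on the log2 scale in U937 (SE 0.27, adjusted p = 0.273). JUND, the JUN protein with the steadiest expression in resting cells, was 5237, 4534 and 6197 in MOLM-13 pLKO, 4808 and 6835 in MOLM-13 shRNF5, 1144 and 1268 in U937 pLKO and 1542 and 1429 in U937 shRNF5. In HL-60 it was 522, 1480 and 1197 with pLKO and 1347, 2148 and 2115 with shRNF5. JUND rose in HL-60 by 0.91 on the log2 scale (SE 0.33, adjusted p = 0.0749) with overlapping groups, since shRNF5 replicate 1 was below pLKO replicate 2. Without pLKO replicate 1, the lowest, the value was 0.46 (adjusted p = 0.184). The call was also lost without pLKO replicate 3 (1.06, adjusted p = 0.113), shRNF5 replicate 2 (0.79, 0.181) or shRNF5 replicate 3 (0.80, 0.213), where the value stayed about as large.

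Within a library, the JUN family could be compared per kb of reference transcript. JUND was the highest of the 3 per kb in 14 of 15 libraries, with JUNB ahead in HL-60 pLKO replicate 1, and JUN was the lowest in all 15. As deposited, without division by length, as would suit the 3′-end kit that the labels name, JUND was highest in 14 libraries and JUN lowest in 14. JUN made up between 0.667% and 1.59% of the family's value per kb in the MOLM-13 libraries and between 7.34% and 12.95% in the HL-60 libraries. In U937 its share was 12.73% and 12.71% with pLKO and 18.36% and 21.61% with shRNF5. FOSL2 was above FOS in all 15 libraries as deposited and in 12 per kb, so that order depends on the scale.

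ATF3 is a stress-induced ATF protein that can repress or activate as a homodimer or with JUN proteins. Its normalized read count was 97, 147 and 305 in MOLM-13 pLKO and 242 and 215 in MOLM-13 shRNF5. It was 44 and 52 in U937 pLKO and 77 and 82 in U937 shRNF5, and 56, 88 and 96 in HL-60 pLKO and 62, 56 and 49 in HL-60 shRNF5. The U937 libraries were higher with shRNF5 and the HL-60 libraries mostly lower, with 1 pLKO library inside the shRNF5 range. The log2 fold changes were 0.72 in U937 (SE 0.46, adjusted p = 0.334), 0.48 in MOLM-13 (SE 0.43) and -0.48 in HL-60 (SE 0.26, adjusted p = 0.209), and none was called. Without HL-60 pLKO replicate 1 the HL-60 value was -0.72 with an adjusted p of 0.0934 and would be called.

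EGR1, a zinc finger factor induced by ERK signalling and linked to monocyte differentiation, changed in opposite directions in U937 and HL-60. In HL-60 its normalized read count was 69, 76 and 68 with pLKO and 21, 23 and 10 with shRNF5. All 3 shRNF5 libraries were far below the 3 pLKO libraries, whose values were close to each other. The HL-60 shRNF5 values rest on about 18, 19 and 13 reads. EGR1 fell there by 2.0 on the log2 scale (SE 0.33, adjusted p = 0.00423), 3.94-fold between the means, and the call stood without any 1 of the 6 libraries, with adjusted p between 0.00548 and 0.0252. In U937 it was 15 and 11 with pLKO and 84 and 35 with shRNF5. EGR1 rose in U937 by 2.0 on the log2 scale (SE 0.65, adjusted p = 0.0853), 4.58-fold between the means, from pLKO values that rest on about 13 and 14 reads. In MOLM-13 it was 165, 61 and 425 with pLKO and 273 and 395 with shRNF5, a log2 fold change of 1.01 (SE 0.67, adjusted p = 0.467) with overlapping groups.

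IER2, a nuclear protein of the immediate early response, was among the steadier members. Its normalized read count was 1932, 1304 and 2293 in MOLM-13 pLKO, 1802 and 2384 in MOLM-13 shRNF5, 1172, 1790 and 1306 in HL-60 pLKO and 1096, 1566 and 1277 in HL-60 shRNF5. In U937 it was 2324 and 1825 with pLKO and 1521 and 1404 with shRNF5, the only member that was lower in both U937 shRNF5 libraries. That log2 fold change was -0.49 (SE 0.25, adjusted p = 0.221) and was not called, nor were those in MOLM-13 (0.21, SE 0.25) and HL-60 (-0.11, SE 0.18).

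DUSP1 dephosphorylates p38, JNK and ERK in the nucleus. Its normalized read count was 68, 69 and 164 in MOLM-13 pLKO and 97 and 148 in MOLM-13 shRNF5, and 11 and 27 in U937 pLKO and 48 and 41 in U937 shRNF5. The U937 log2 fold change of 1.31 (SE 0.64) had an adjusted p of 0.213 and was not called, although both shRNF5 libraries were above both pLKO libraries. DUSP6 is the cytoplasmic phosphatase of ERK and is itself induced by ERK. It was 691, 1179 and 2101 in MOLM-13 pLKO and 1203 and 1787 in MOLM-13 shRNF5. In U937 it was 203 and 541 with pLKO and 1247 and 1297 with shRNF5, and in HL-60 1122, 1595 and 1386 with pLKO and 822, 1414 and 638 with shRNF5. DUSP6 rose in U937 by 1.94 on the log2 scale (SE 0.40, adjusted p = 0.0266), 3.42-fold between the means. The HL-60 value was -0.58 (SE 0.25, adjusted p = 0.125), 1 shRNF5 library lying among the pLKO libraries, and without that library, shRNF5 replicate 2, it was -0.90 with an adjusted p of 0.0125. With the replicate number as a block it was called as well (adjusted p = 0.0349).

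**Figure D2:**
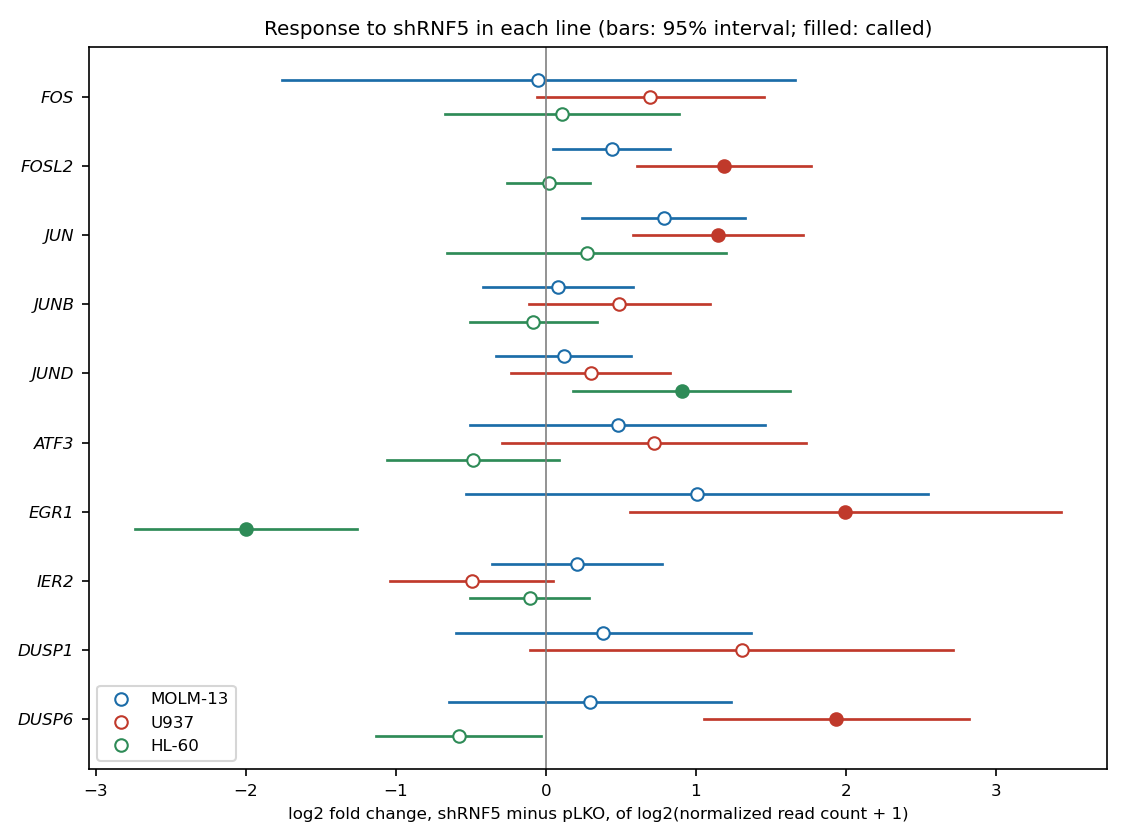
The plot gives the log2 fold change of each gene, shRNF5 minus pLKO, in each line with its 95% interval from limma, filled where called. In U937 9 of 10 points lie above 0 and 4 are filled, in HL-60 EGR1 is filled below 0 and JUND above it, and in MOLM-13 no point is filled.

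Counted together, 4 of the 10 members were called higher with shRNF5 in U937 and 0 lower, where 6.92% of 13165 genes were called higher and 8.74% lower. The U937 groups did not overlap for any of the 10 members, against 59.2% of all genes, and the median log2 fold change of the members was 0.93, against 0.00 over all genes. In HL-60 1 of 9 was called higher and 1 of 9 lower, which is close to the 13.6% and 12.3% of 12570 genes called in these directions. Groups there did not overlap for 1 of the 9, EGR1, against 38.5% of all genes, and the median of the members was -0.08. In MOLM-13 limma called 0 of 10 members, where 1.03% of 13026 genes were called higher and 1.01% lower, and 2 of 10, FOSL2 and JUN, had an unadjusted p under 0.05, as had 2213 of the 13026 genes (17%). These same 2 were the members whose MOLM-13 groups did not overlap, against 38.7% of all genes, and the median over members was 0.34. Although 9 of the 10 members had a positive value in MOLM-13, leaving out 1 library or another turned the sign of JUNB, JUND, IER2 and DUSP6. Their lowest log2 fold changes over the omissions were -0.16, -0.13, -0.022 and -0.10.

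The calls in U937 rest on 4 libraries. FOSL2, JUN and DUSP6 were no longer called without pLKO replicate 2 (adjusted p = 0.256 each), shRNF5 replicate 1 (0.594, 0.585 and 0.538) or shRNF5 replicate 3 (0.206, 0.233 and 0.198), while their log2 fold changes stayed between 0.90 and 2.64 over all 4 omissions. EGR1 was lost in each of the 4 omissions, at 2.20 on the log2 scale without pLKO replicate 2 (adjusted p = 0.258), 1.79 without pLKO replicate 3 (0.161), 1.38 without shRNF5 replicate 1 (0.70) and 2.62 without shRNF5 replicate 3 (0.198). Without pLKO replicate 2, shRNF5 replicate 1 and shRNF5 replicate 3 in turn, 0, 0 and 6 genes were called in the whole line. Without pLKO replicate 3, DUSP1 was called too, at 1.92 on the log2 scale and an adjusted p of 0.0919.

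Within the MOLM-13 and HL-60 groups, several members were often high or low in the same library, while the U937 groups were split more evenly. MOLM-13 pLKO replicate 2 was the lowest of its group for 6 of 10 members, against 28.1% of all genes in that line, and replicate 3 the highest for 9, against 32.4%. Of the MOLM-13 shRNF5 libraries replicate 1 was the lower for 9 of 10, against 49.6%. In HL-60 replicate 2 was the highest of its group for 7 of 9 members with pLKO, against 39.5% of all genes, and for 7 of 9 with shRNF5, against 31.2%. Replicate 1 was the lowest for 6 of 9 in both HL-60 groups, against 34.1% with pLKO and 31.7% with shRNF5. With shRNF5 these 6 include FOS, which was 25 in replicate 3 as well, whereas the shares of all genes leave ties out. In U937 pLKO replicate 2 was the lower for 6 of 10 members, against 50.2%, and shRNF5 replicate 3 for 7 of 10, against 48.6%. After removal of the line means, 33 of the 36 pairs of members correlated positively over the 15 libraries, with a median Pearson r of 0.426 and a range from -0.176 (JUND with EGR1) to 0.774 (ATF3 with DUSP6). These values include the shift between constructs. After removal of the mean of each group instead, 33 of the 36 were positive, with a median of 0.389 and a range from -0.119 to 0.902. The correlations are a description of libraries that share a line and its scaling, and were not set against those of other genes.

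**Figure D3:**
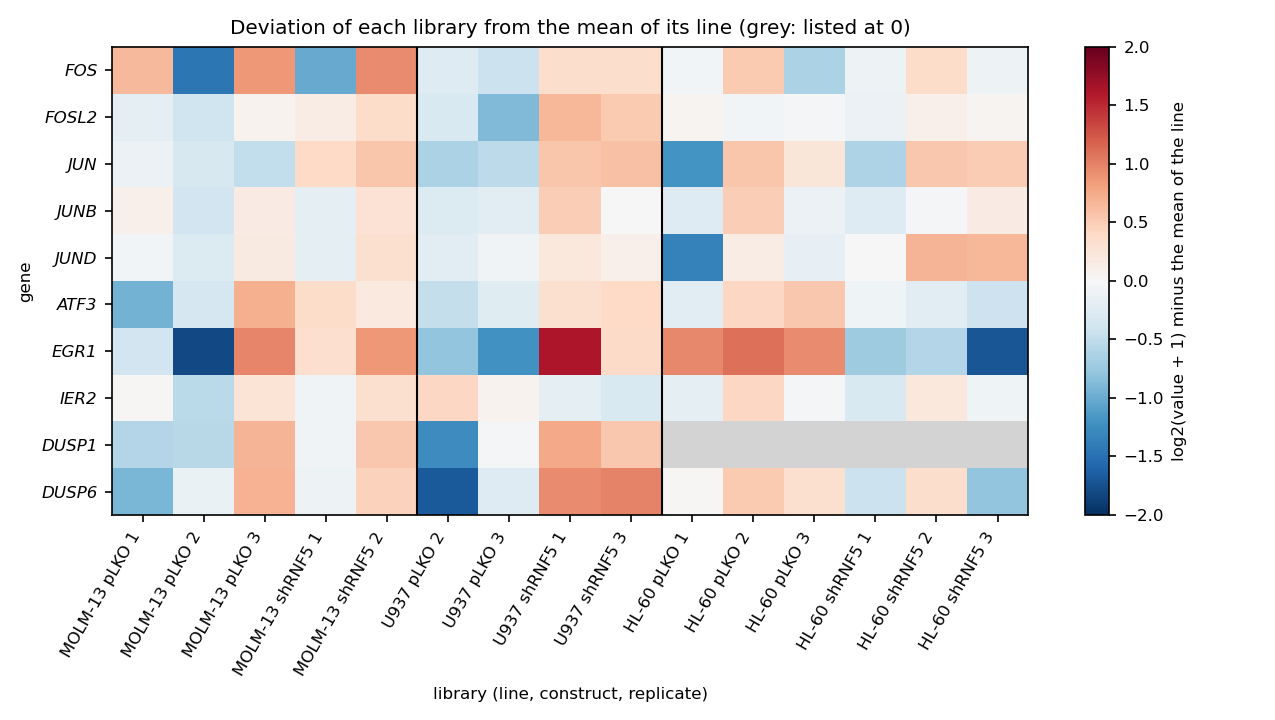
The colour map shows, for each gene and library, log2(value + 1) minus the mean of its line, with red above and blue below that mean and grey where a gene is listed at 0. The U937 shRNF5 libraries lie at or above the mean of the line for all genes but IER2, and MOLM-13 pLKO replicate 2 is blue throughout.

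Whether the response differed between lines was tested directly, in 1 fit over all 15 libraries and 11072 genes above 0 in every line, which held 9 of the members. EGR1 differed between U937 and HL-60 by 4.0 on the log2 scale (SE 0.84, adjusted p = 0.0038), with rises in both U937 shRNF5 libraries and falls in all 3 HL-60 ones. FOSL2 differed by 1.17 (SE 0.25, adjusted p = 0.00425) and DUSP6 by 2.52 (SE 0.61, adjusted p = 0.00789) between the same lines, the U937 response being the higher for all 3. That is 3 of 9 members, where 37.2% of all genes differed between U937 and HL-60. The differences of ATF3 (1.21, SE 0.53, adjusted p = 0.101) and JUN (0.87, SE 0.57, adjusted p = 0.267) did not pass, and JUN would pass without HL-60 pLKO replicate 1 (1.40, adjusted p = 0.0299), as would ATF3 (1.44, adjusted p = 0.0682).

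EGR1 also differed between MOLM-13 and HL-60, by 3.01 (SE 0.80, adjusted p = 0.0503). This 1 of 9 stood beside 8.82% of all genes. The call was lost without MOLM-13 shRNF5 replicate 1 (3.28, adjusted p = 0.166) or 2 (2.74, 0.179), HL-60 pLKO replicate 1 (3.03, 0.108) or 3 (3.04, 0.102), or HL-60 shRNF5 replicate 3 (2.66, 0.145). ATF3 would pass without MOLM-13 pLKO replicate 3 (1.41, adjusted p = 0.0623). Between MOLM-13 and U937 FOSL2 alone passed, at -0.75 (SE 0.26, adjusted p = 0.088), the U937 rise being the larger, where 15.4% of all genes differed. It was lost without MOLM-13 pLKO replicate 3 (-0.63, adjusted p = 0.142), MOLM-13 shRNF5 replicate 1 (-0.64, 0.251) or 2 (-0.86, 0.178), U937 pLKO replicate 3 (-0.46, 0.193) or U937 shRNF5 replicate 1 (-0.68, 0.272). DUSP6 missed the threshold there at -1.64 (SE 0.64, adjusted p = 0.116), and passed without MOLM-13 pLKO replicate 1 (adjusted p = 0.0439) or U937 pLKO replicate 3 (adjusted p = 0.016). FOS, JUN, JUNB, JUND, ATF3 and IER2 passed in none of the 3 comparisons, with 95% intervals as wide as that of FOS between MOLM-13 and U937, from -2.61 to 1.11.

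**Figure D4:**
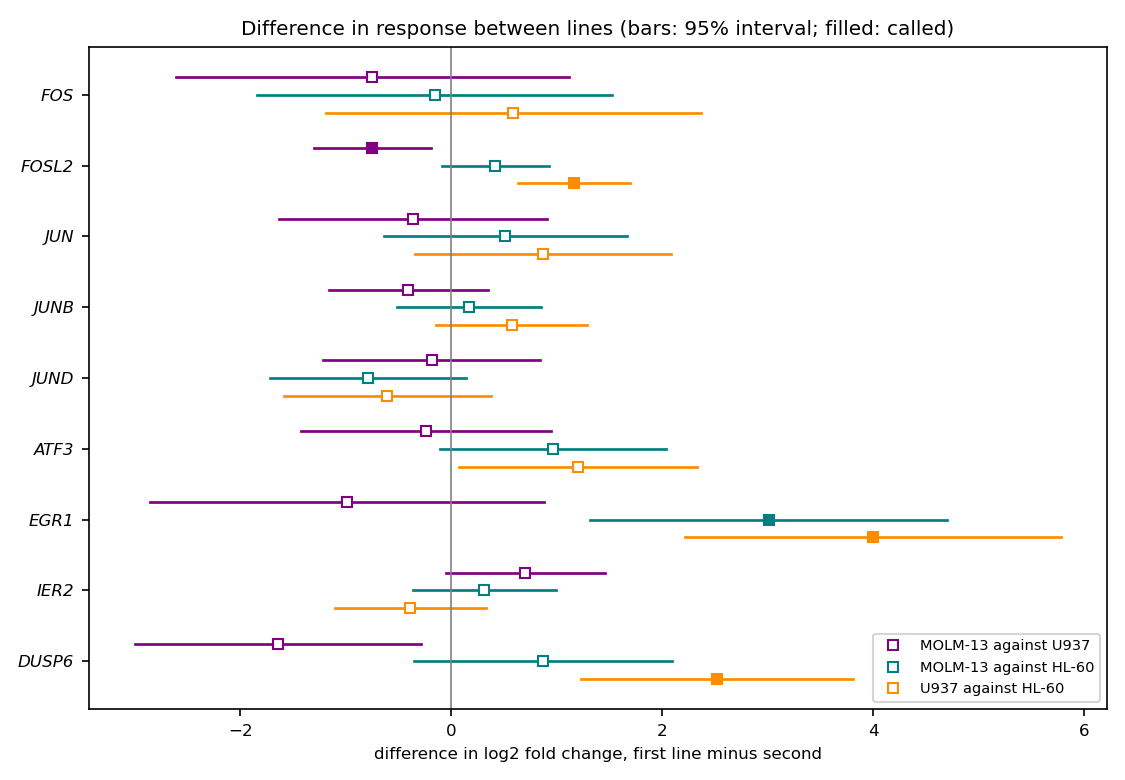
The plot gives, for the 9 genes above 0 in every line, the difference in log2 fold change between pairs of lines with its 95% interval, filled where the adjusted p is under 0.1. The filled points are EGR1 and FOSL2 in 2 comparisons each and DUSP6 between U937 and HL-60.

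Levels across the 6 groups followed no common order. FOS was highest in MOLM-13, with group means of 1022 and 994, lower in U937 (142.5 and 231.5) and lowest in HL-60 (27.3 and 28.3). The lines did not overlap each other, nor did the U937 groups, while the MOLM-13 groups overlapped and so did the HL-60 groups. FOSL2 had its highest mean in MOLM-13 shRNF5 (4138), followed by U937 shRNF5 (3217) and MOLM-13 pLKO (3066), which overlapped, then U937 pLKO (1438) and the HL-60 groups (675 and 664), which overlapped. JUND was highest in the MOLM-13 groups (5822 and 5323) and JUNB too (2481 and 2339), each pair overlapping.

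JUN ran the other way, with its highest mean in U937 shRNF5 (1032.5) and its lowest in the MOLM-13 groups (201 and 116.7). The HL-60 groups (513 and 450) overlapped U937 pLKO (466), and HL-60 pLKO reached down to MOLM-13 shRNF5. EGR1 had means of 334 and 217 in MOLM-13, 71 in HL-60 pLKO, 59.5 in U937 shRNF5, 18 in HL-60 shRNF5 and 13 in U937 pLKO, so that U937 with shRNF5 overlapped HL-60 with pLKO and HL-60 with shRNF5 overlapped U937 with pLKO. The wide MOLM-13 pLKO range also took in HL-60 pLKO. DUSP6 showed a like crossing, with 1272 in U937 shRNF5 inside the range of the MOLM-13 pLKO libraries and 372 in U937 pLKO below all other groups. ATF3 was highest in MOLM-13 (229 and 183), followed by HL-60 pLKO (80) and U937 shRNF5 (79.5), which overlapped, and then by HL-60 shRNF5 (55.7) and U937 pLKO (48), which overlapped too. DUSP1 was highest in MOLM-13 (122.5 and 100.3), where the groups overlapped, then 44.5 in U937 shRNF5 and 19 in U937 pLKO, each clear of the group above. IER2 was the most even of all, from 1313 in HL-60 shRNF5 to 2093 in MOLM-13 shRNF5, and each group overlapped the next. When all 15 libraries were rescaled together, the order of the 6 groups changed for FOSL2, JUN, JUNB, IER2 and DUSP6. The values were divided by factors of 1.31 to 1.34 in MOLM-13, 0.90 to 0.93 in U937 and 0.83 to 0.85 in HL-60. Levels as deposited therefore stand higher in MOLM-13 beside the other lines. On the joint scale MOLM-13 pLKO overlapped HL-60 pLKO for ATF3 and JUNB, U937 shRNF5 for DUSP1 and U937 pLKO for DUSP6.

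The genes whose pattern was most like that of each member were found by Pearson correlation over the 15 libraries after removal of the line means, among 10571 genes above 0 in all lines with a mean value of at least 50. Over so many candidates some high values must occur, and they are given as a description. For EGR1 they were MFSD2A (r = 0.89), ZSCAN22 (0.89) and TMEM43 (0.89), for DUSP6 DNAJB6 (0.92), SF3B4 (0.92) and INPP1 (0.92), and for FOSL2 CHD7 (0.92), TES (0.91) and HECTD3 (0.91). JUN was followed most closely by MICALL1 (0.89) and DOLK (0.84), JUNB by TGFB1 (0.85), NFE2L3 (0.85) and TBKBP1 (0.82), and JUND by SLC39A1 (0.92), RHOC (0.90) and TBCC (0.89). ATF3 went with CYB561A3 (0.91) and SMAP2 (0.89), IER2 with RAB40C (0.89), NOB1 (0.89) and APBA3 (0.84), and FOS with METTL7B (0.80), AGFG2 (0.80) and CYTIP (0.79). None of the members was among the 3 genes most like another member.

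The remaining genes of the pathway were taken from 8 lists of textbook members, none of which holds one of the 10 genes above. Together they counted 164 tested genes in MOLM-13, of which 6 were called higher and 1 lower, 164 in U937, with 24 higher and 13 lower, and 159 in HL-60, with 36 higher and 28 lower. These are 3.66% and 0.61% in MOLM-13, where 1.03% and 1.01% of all genes were called higher and lower, 14.6% and 7.93% in U937, against 6.92% and 8.74%, and 22.6% and 17.6% in HL-60, against 13.6% and 12.3%. These counts rest on few libraries. In U937 the lists had 0, 0 and 1 calls without pLKO replicate 2, shRNF5 replicate 1 and shRNF5 replicate 3. In MOLM-13 they had 16 without pLKO replicate 1, 2 without pLKO replicate 3 and 0 without any of the other 3 libraries, and in HL-60 they had 42 without shRNF5 replicate 3. Among the other AP-1 and bZIP factors, FOSL1, which encodes FRA-1, had the largest called rise in U937 and was the only one called in MOLM-13. Its normalized read count rose from 19 and 63 to 315 and 292 in U937 (log2 fold change 3.09, SE 0.54, adjusted p = 0.0185) and in MOLM-13 from 400.7 ± 18.04 (SD, n = 3) to 716 ± 38.2 (SD, n = 2; 0.84, SE 0.16, adjusted p = 0.078), with 0.20 (SE 0.37) in HL-60. In MOLM-13 FOSL1 alone is 5.56% of the factors tested, against 1.03% of all genes called higher. Of 20 such factors tested in U937, 3 were called higher, FOSL1 and ATF5 among them, and CREBZF was called lower. Those are 15% and 5%, against 6.92% and 8.74% of all genes. Of 19 tested in HL-60, 21.1% were called higher and 26.3% lower, against 13.6% and 12.3% of all genes. These were 4 higher (CREM, JDP2, ATF5 and MAFG) and 5 lower. The 5 were BATF3 at -1.87 (adjusted p = 0.0117), MAFF at -1.33 (adjusted p = 0.078), FOSB, CREB5 and ATF7.

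Of the other immediate early genes, more were called higher than lower in each line. In U937 7 of 30 were called higher and 0 lower, with PTGS2, the inducible cyclooxygenase, at 2.80 (adjusted p = 0.0274) and TRIB1 at 2.05 (adjusted p = 0.0331). HL-60 had 11 of 28 higher and 2 lower (TRIB1 and MYC), with the antiproliferative gene BTG2 at 1.72 (adjusted p = 0.00613) and the kinase SGK1 at 1.57 (adjusted p = 0.0326). MOLM-13 had 3 of 35 higher and 0 lower, with RHOB at 2.20 (adjusted p = 0.0348) and KLF2 at 1.99 (adjusted p = 0.0255) beside BTG2. The shares called higher were 23.3% in U937, 39.3% in HL-60 and 8.57% in MOLM-13, where 6.92%, 13.6% and 1.03% of all genes were. Those called lower were 0% in U937, 7.14% in HL-60 and 0% in MOLM-13, where 8.74%, 12.3% and 1.01% of all genes were. Their median was 0.40 in U937, 0.26 in MOLM-13 and 0.24 in HL-60, where the medians of all genes were within 0.01 of 0.

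Of the feedback and output genes of ERK, to whose kind DUSP6 belongs, those called in U937 were all higher and those called in HL-60 were lower except for PLAUR. In U937 5 of 13 were called higher (EMP1, SPRY4, ETV5, PHLDA1 and SPRED2) and 0 lower, with a list median of 1.07. Those are 38.5% and 0%, against 6.92% and 8.74% of all genes. In HL-60 1 of 14, PLAUR, was called higher and 9 lower, with a list median of -1.01. Those are 7.14% and 64.3%, against 13.6% and 12.3%. EMP1 and PHLDA1 were not called in HL-60, at 0.35 and 0.09, and PLAUR was not called in U937, at 0.33. SPRY4, a Sprouty inhibitor of receptor signalling, rose from 6 and 7 to 77 and 55 in U937 (3.14, SE 0.64, adjusted p = 0.0256) and fell from 193, 249 and 184 to 31, 71 and 13 in HL-60 (-2.71, SE 0.47, adjusted p = 0.00473). ETV4, an ETS factor induced by ERK, fell in HL-60 by 3.19 (SE 0.50, adjusted p = 0.00333), and the membrane protein EMP1 rose in U937 by 3.33 (SE 0.35, adjusted p = 0.00287). The difference between U937 and HL-60 itself passed for 9 of 12 of these genes, all with the higher response in U937, against 19.1% of all genes with a higher response there, and was 5.85 for SPRY4 (SE 0.65, adjusted p = 0.000135) and 4.28 for ETV4 (SE 0.76, adjusted p = 0.00156). In MOLM-13 only CCND1, cyclin D1, was called, at 1.29 (SE 0.23, adjusted p = 0.0704), 1 of 13 with a list median of 0.08. That is 7.69%, against 1.03% of all genes called higher.

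**Figure D5:**
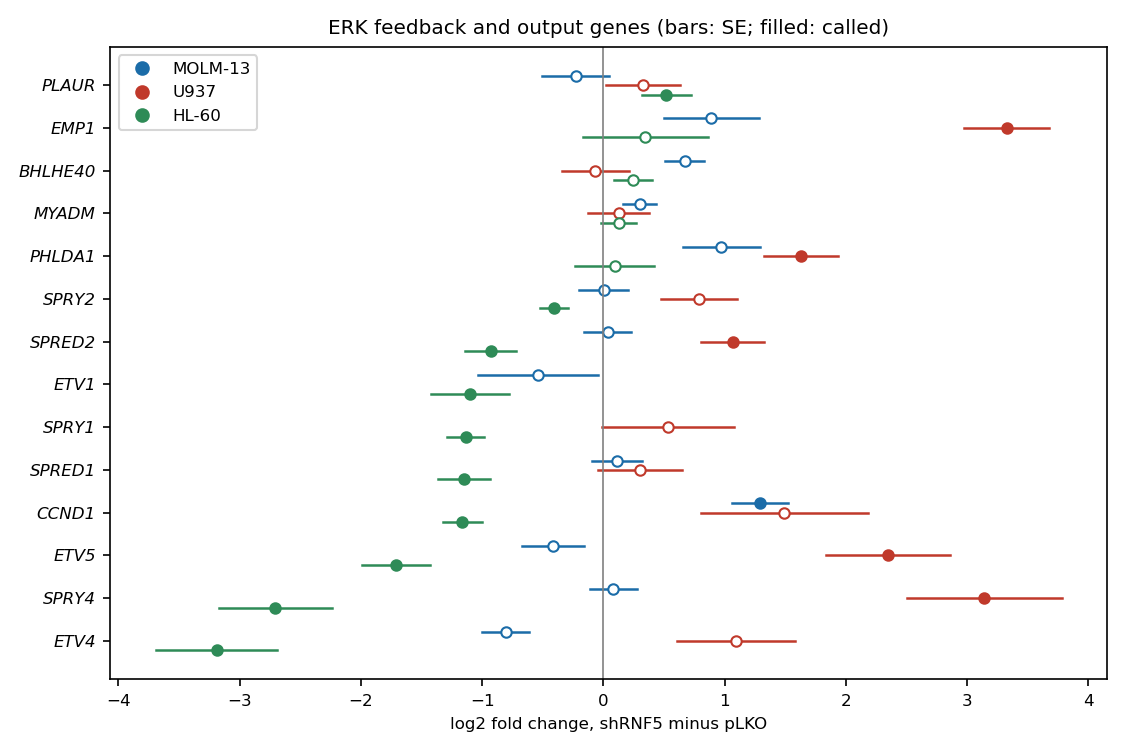
The plot gives the log2 fold change, shRNF5 minus pLKO, of the ERK feedback and output genes in each line with its SE, filled where called, ordered by the HL-60 value. From SPRY2 down to ETV4 every HL-60 point is filled below 0, and the U937 points are above 0 except that of BHLHE40, with 5 of them filled.

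The MAPK phosphatases other than the members split within lines. DUSP5, a nuclear phosphatase of ERK, rose in U937 by 1.53 (SE 0.32, adjusted p = 0.0272) and DUSP3 fell by 1.03 (SE 0.29, adjusted p = 0.0578), the only 2 of 11 called. Each is 9.09% of the list, against 6.92% of all genes called higher and 8.74% lower. In HL-60 4 of 11 were called higher, with DUSP22 at 1.26 (adjusted p = 0.00157) and DUSP10 at 0.76 (adjusted p = 0.0347) beside DUSP3 and DUSP19, and DUSP7 was called lower. Those are 36.4% and 9.09%, against 13.6% and 12.3% of all genes. In MOLM-13 limma called 0 of 12, with 2 at an unadjusted p under 0.05, which 17% of all genes reached. Of the serum response and ternary complex factors, 3 of 9 were called higher in U937, the coactivator EP300 at 1.15 (adjusted p = 0.0353), MKL2 at 1.05 (adjusted p = 0.0937) and ELK1, and MED23 was called lower. Those are 33.3% and 11.1%, against 6.92% and 8.74% of all genes. The HL-60 shares of this list are 0% and 22.2%, against 13.6% and 12.3%. In HL-60 EP300, at -0.66 (adjusted p = 0.0413), and MKL2 were called lower, 2 of 9, and the EP300 response differed between these lines by 1.81 (SE 0.37, adjusted p = 0.00351). In MOLM-13 limma called 0 of the 9, with 4 at an unadjusted p under 0.05.

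The kinases and adaptors of the MAP kinase cascade were called about as often as all genes, except that 0 rose in U937, where 6.92% of all genes did. In MOLM-13 limma called 0 of 43, with 5 at an unadjusted p under 0.05. In U937 0 of 44 were called higher and 5 lower, led by the p38 kinases MAPK13 at -2.76 (adjusted p = 0.0179) and MAPK12 at -1.21 (adjusted p = 0.0303), with RPS6KA2, MAP2K5 and MAP2K2. Those 5 are 11.4%, against 8.74% of all genes. In HL-60 5 of 43 were called higher (RPS6KA4, RPS6KA5, MAP3K8, MAP3K11 and RASA1) and 6 lower, with RPS6KA4 at 0.63 (adjusted p = 0.0321) and NRAS at -0.75 (adjusted p = 0.00564), 11.6% and 14% against 13.6% and 12.3% of all genes. The integrated stress response genes around ATF3 had 0 of 20 called by limma in MOLM-13, with 4 at an unadjusted p under 0.05. Of 20 in U937, EIF2S1 was called higher and 3 were called lower, GADD45A at -1.98 (adjusted p = 0.0197), the stress sensor ERN1 at -1.45 (adjusted p = 0.0321) and ASNS. Of 20 in HL-60, 5 were called higher, DDIT3, which encodes CHOP, at 0.94 (adjusted p = 0.0134), the chaperone DNAJB9 at 0.76 (adjusted p = 0.0282), HERPUD1, XBP1 and CEBPB, and 2 lower, ASNS and TRIB3. For this list the U937 shares are 5% higher and 15% lower, against 6.92% and 8.74% of all genes. The HL-60 shares are 25% and 10%, against 13.6% and 12.3%.

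Of genes known as AP-1 targets, 4 of 17 were called higher (HMOX1, MMP1, TNF and IL8) and 2 lower (PLAU and ITGAX) in U937. In HL-60 6 of 15 were higher and 1 lower (IL8), and in MOLM-13 1 of 14 went in each direction. The U937 shares are 23.5% higher and 11.8% lower, against 6.92% and 8.74% of all genes. The HL-60 shares are 40% and 6.67%, against 13.6% and 12.3%. In MOLM-13 they are 7.14% each way, against 1.03% and 1.01%. HMOX1, heme oxygenase, rose from 86.5 ± 26.2 to 1717.5 ± 218 (SD, n = 2 each) in U937 (4.32, adjusted p = 0.000634) and from 6.0 ± 4.4 to 60.7 ± 15.2 (SD, n = 3 each) in HL-60 (3.28, adjusted p = 0.00177). The collagenase MMP1 rose by 3.46 in U937 (adjusted p = 0.0127). CD44, the hyaluronan receptor, rose by 3.19 in HL-60 (adjusted p = 0.00515) and fell by 0.76 in MOLM-13 (adjusted p = 0.0647), where the filament gene VIM rose by 0.84 (adjusted p = 0.078). The CD44 responses of MOLM-13 and HL-60 differed by -3.95 (SE 0.60, adjusted p = 0.00545).

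The summed value of the 14 myeloid markers moved with the construct in 2 lines, but a few granule genes dominated it. It was 44783 and 49150 in the U937 pLKO libraries and 26101 and 29823 with shRNF5, and 122861 to 148851 in HL-60 with pLKO and 165115 to 246836 with shRNF5. MPO made up most of the HL-60 sum, at 105563 to 130372 with pLKO and 141317 to 207430 with shRNF5. In U937 AZU1 was 12516 to 13539 with pLKO and 1749 to 3267 with shRNF5. ELANE was 9166 to 11149 and 4077 to 5780 there. Of 13 tested in U937, 0 were called higher and 3 lower (AZU1, CSF3R and ELANE). Of 12 in HL-60, 5 were called higher (AZU1, ELANE, LYZ, MPO and PTPRC) and 2 lower (CD33 and FCGR1A). The U937 shares of these markers are 0% higher and 23.1% lower, against 6.92% and 8.74% of all genes. The HL-60 shares are 41.7% and 16.7%, against 13.6% and 12.3%. The markers of other cell types present in the libraries summed to at most 360 in any of them, with filtered markers taken as 0. The part of the marker shift in the results on the members was not tested. In such bulk samples, fewer cells with a transcript and less of it per cell cannot be told apart.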

How the data were processed

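RNA-seq libraries of 3 AML lines were grouped by the construct, line and replicate number in the sample labels. Per the study's methods and the labels, STAR aligned the reads to hg19, featureCounts assigned them to genes, and the authors then applied edgeR's normalization in SARTools. What was deposited is treated as a score, because the counts had been scaled per library within a line, rounded, and set to 0 for genes that failed a filter. The labels name a 3′-end kit and the methods a directional poly(A) kit. Because the values are normalized, limma 3.58.1 (R 4.3.3) was run on log2(value + 1) with a mean-variance trend, per line, over all genes above 0 there. Calls required an adjusted p (Benjamini-Hochberg) under 0.1 and a log2 fold change beyond 0.4 either way, and differences between lines the p alone. Depth was estimated from the spacing of rounded values, 9700000 to 63800000 reads per library, and limits low genes most. The scaling factors of a line were assumed to average 1. Where the first estimates did not, a factor was searched again near the value that gave this mean. No counting interval is given, since values are not counts.

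Tested on simulated data with 100 genes changed 2-fold and 100 changed 4-fold among the real genes, limma recovered 63.6% and 95.8% in MOLM-13 (13026 genes), 13.8% and 81.0% in U937 (13165) and 81.4% and 97.6% in HL-60 (12570), with 11.4%, 11.0% and 10.3% of calls false. These are means over 5 draws. Genes of the lowest mean value in a line were not among the changed ones, and the spread of each gene was drawn towards the median gene. The rates hold for that setting, and other numbers of changed genes were not simulated.

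Coordinates and transcript structure came from GENCODE on GRCh37 and promoters from RefSeq. Named genes were RNF5, the 10 members, the 2 called genes with the largest fold change per list and line whose groups do not overlap, and the 3 genes most like each member; some genes under this rule are not reported here. Genes of small counts named without values, and SPRY2 and BHLHE40, were added after their values were seen. The members and lists were chosen with earlier results of these data known. Alternatives were the pseudocount (0.5, 10), a mean value of at least 50, rescaling, the trend, library weights, thresholds, 1 fit over all libraries, a replicate block and leaving out each library.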

Additional observations from a re-analysis of the deposited data

Results flagged for a closer look

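The responses of 3 members differed between lines by the test of the difference itself. Between U937 and HL-60 they were EGR1 (4.0 on the log2 scale), DUSP6 (2.52) and FOSL2 (1.17), and these calls stood under all alternatives that gave a value, EGR1 not being tested at a mean value of at least 50, with adjusted p between 0.00371 and 0.0304 for EGR1, 0.00124 and 0.0472 for DUSP6 and 0.00284 and 0.026 for FOSL2. EGR1 differed between MOLM-13 and HL-60 by 3.01, a call lost under 6 of 17 alternatives, 5 of which left out 1 library. FOSL2 differed between MOLM-13 and U937 by -0.75, a call lost under 9 of 16 alternatives. These are 3, 1 and 1 of 9 members, where 37.2%, 8.82% and 15.4% of all genes differed between the same lines, so the counts are near the background and only the single genes are described. The 5 differences share groups, so they are not independent of each other.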

How the results depend on the processing

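For the members, U937 calls went from 4 to 0 without the mean-variance trend, and ranged from 0 to 4 when 1 library was left out. MOLM-13 calls went from 0 to 3 with library weights (FOSL2, JUN and EGR1), and from 0 to 1 over the omissions. HL-60 calls went from 2 to 1 at a mean value of at least 50, where EGR1 is no longer tested, without the trend and at an adjusted p under 0.05, and from 1 to 2 over the omissions. Member differences between MOLM-13 and U937 went from 1 to 0 at an adjusted p under 0.05, with median-of-ratios rescaling and without the trend, and from 0 to 2 over the omissions. Those between MOLM-13 and HL-60 went from 1 to 0 at an adjusted p under 0.05 and at a mean value of at least 50, where EGR1 is again not tested, to 3 with library weights, and from 0 to 2 over the omissions. Those between U937 and HL-60 went from 3 to 5 at most over the omissions. Calls over the pathway lists went in MOLM-13 from 7 to 2 without the trend and at an adjusted p under 0.05, to 48 with library weights and from 0 to 16 over the omissions. In U937 they went from 37 to 14 without the trend, 22 at an adjusted p under 0.05, 58 in 1 fit over all libraries and from 0 to 44 over the omissions, and in HL-60 from 64 to between 42 and 67 over the omissions. The cause was not tested.

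The replicate block was fitted for MOLM-13 and HL-60, and U937 shares only 1 number between constructs, so no block could be fitted there. Same-numbered deviations correlated at 0.39, 0.12 and -0.05 in HL-60 and at -0.13 and -0.45 in MOLM-13, so the numbers were not taken to pair the libraries. With the block, 3 members were called in HL-60 (JUND, EGR1, DUSP6) and 1 in MOLM-13 (EGR1), and the lists had 20 calls in MOLM-13. The crossed pairing, which follows the numbers in the file names and was added after the data were seen, gave 3 members and 51 list calls.

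Signs turned only for values that were not called. FOS in MOLM-13 became 0.56 with library weights, 0.37 with the block and 0.27 with the crossed block, DUSP6 in MOLM-13 became -0.10 with the crossed block, and FOS between MOLM-13 and HL-60 became 0.16 with library weights. Over the omissions, values in MOLM-13 ranged from -1.03 to 0.93 for FOS, -0.16 to 0.33 for JUNB, -0.13 to 0.37 for JUND, -0.022 to 0.41 for IER2 and -0.10 to 0.70 for DUSP6. Those in HL-60 ranged from -0.18 to 0.39 for FOS, -0.026 to 0.088 for FOSL2, -0.26 to 0.65 for JUN, -0.23 to 0.14 for JUNB and -0.24 to 0.070 for IER2. Between MOLM-13 and U937 they ranged from -1.73 to 0.23 for FOS, -0.44 to 0.071 for JUND and -0.61 to 0.21 for ATF3, and between MOLM-13 and HL-60 from -1.14 to 0.83 for FOS and -0.077 to 0.41 for JUNB. Rescaling all libraries together changed the order of the 6 group levels for 5 members. MOLM-13 pLKO then overlapped groups it had been clear of for ATF3, JUNB, DUSP1 and DUSP6.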
